A study of Homo sapiens with 12 samples.

Results

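The 10 genes described here code for the glucose transporter and for enzymes of glycolysis: SLC2A1, HK1, HK2, PFKP, PFKFB3, PFKFB4, PGK1, ENO1, ENO2 and LDHA. They were taken by gene symbol from the annotation of the array, in which each of the 10 had 1 probe set, and they are 10 of the 18377 genes measured. HT29 is an established line of human colon adenocarcinoma cells. The cells were grown in F12 medium with serum and profiled in 4 groups of 3 Affymetrix gene arrays, labelled as biological replicates. The groups were an untreated control, taken as 0 h, and cells kept for 8 h, 24 h and 48 h with 70 nM methotrexate, an antifolate that blocks the supply of reduced folates for thymidylate and purine synthesis. All controls stand for the start of the course and none for a later time, so methotrexate and time in culture cannot be told apart in any comparison with control.

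Glycolysis turns glucose into pyruvate in the cytosol and yields ATP, NADH and precursors for nucleotides, serine and lipids. Glucose enters through transporters such as GLUT1, is trapped by hexokinase, and is committed to the pathway by phosphofructokinase, which fructose 2,6-bisphosphate activates. Tumour cells commonly run the pathway fast and export the carbon as lactate even when oxygen is present. Many of its genes are known targets of the hypoxia-inducible factor HIF1 and of MYC.

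The deposited values are log2 ratios to the median of the 3 control arrays of each probe set. Absolute levels are lost, so one gene's level cannot be set against another's and the identity of the cells cannot be checked by the presence of markers. The differences of 10 epithelial and colon markers from control had medians of 0.06, 0.04 and 0.03 at 8, 24 and 48 h, with 2, 3 and 1 of them called higher by limma, and ran from -0.13 to 0.79. CEACAM5 was higher by 0.50 at 8 h and 0.79 at 24 h, KRT19 by 0.26 and 0.41 at these times, and KRT20 by 0.53 at 24 h and 0.51 at 48 h; their part in the results on the 10 genes was not tested. The differences of 16 measured fibroblast, leukocyte and endothelial markers ran from -0.13 to 0.21 over the 3 times. The arrays were alike in their medians over genes, from -0.02 to 0.04. Replicate 3 at 48 h stood apart: its root mean square difference over all genes was 0.21 from replicate 1 and 0.18 from replicate 2, against 0.09 to 0.14 for every other pair of replicates. In bulk RNA, a change in the share of cells that express a gene and a change in its RNA per cell cannot be told apart.

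After 8 h, most of the 10 genes were higher than in control, and none was called lower (12.0% of all genes were): the lowest difference was 0.02. SLC2A1, HK1, HK2, PFKP, PFKFB3, ENO1 and LDHA rose (limma, Benjamini-Hochberg adjusted p under 0.05 over all genes), by 1.17-fold (SLC2A1 and HK1) to 1.54-fold (HK2). These 7 of 10 compare with 12.1% of all genes called higher at that time. The 10 genes were chosen with earlier results of these data known, so such shares describe them and are not a test. Most of these calls did not last: only SLC2A1, PFKP and PFKFB3 were called higher at 24 h too, SLC2A1 at the threshold. With ENO2, not called at 8 h, 4 genes were called higher than control at 24 h (8.69% of all genes). None was called lower at 24 h (8.02%), where the lowest difference was -0.06 (LDHA). At 48 h, 2 were called higher (13.0%), while LDHA, which ends the pathway at lactate, was the 1 gene called lower than control (12.3%). ENO2, the enolase known from neurons, took another course, close to control at 8 h and 2.11-fold higher at 48 h. The median difference of the 10 genes from control was 0.24 at 8 h, 0.13 at 24 h and 0.08 at 48 h, beside medians of 0.02, 0.02 and 0.01 over all genes. All times are set against the same 3 controls, so these comparisons are not independent.

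**Figure D1:**
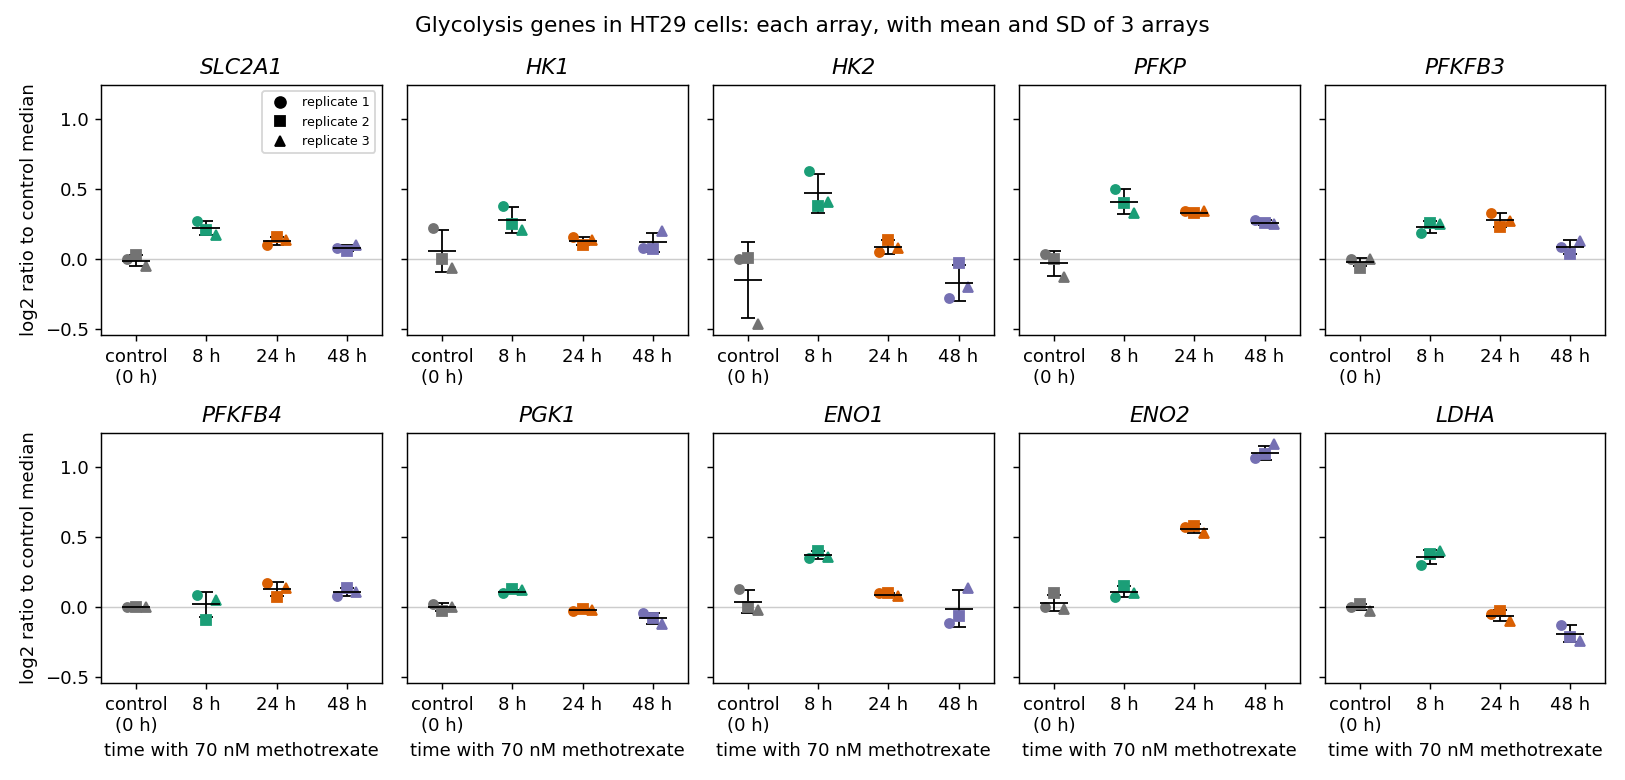
Log2 ratio to the control median (vertical axis) of each of the 10 genes on every array, by time with 70 nM methotrexate (horizontal axis); symbols are replicates 1 to 3, and bars give the mean and SD of 3 arrays. HK2, PFKP, ENO1 and LDHA peak at 8 h, and ENO2 reaches 1.06 to 1.16 at 48 h.

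The transcripts of SLC2A1, HK1 and HK2, which act in glucose entry and its first phosphorylation, were called higher at 8 h and not at 48 h. SLC2A1, which encodes the transporter GLUT1, had values of 0.00, 0.03 and -0.05 in the control arrays (replicates 1 to 3 in that order, as in all such lists here), 0.27, 0.21 and 0.17 at 8 h, 0.10, 0.16 and 0.14 at 24 h, and 0.08, 0.06 and 0.10 at 48 h. The treated arrays of all 3 times lay above all control arrays, most clearly at 8 h. It was 1.17-fold higher at 8 h (log2 difference 0.23, SE 0.04, adjusted p = 0.00211, limma) and 1.10-fold higher at 24 h (0.14, SE 0.04, adjusted p = 0.0484). The 24 h call was at the threshold and was lost in 15 of 19 alternative analyses, among them leaving out any control or 24 h array, 8 h replicate 2 or 3, or 48 h replicate 1 or 2 (adjusted p up to 0.141). At 48 h the difference was 0.09 (SE 0.04, adjusted p = 0.197). The steps between 8 and 24 h (-0.09, adjusted p = 0.228) and between 24 and 48 h (-0.05, adjusted p = 0.592) were not called, so a fall of SLC2A1 after 8 h was not shown.

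HK2, the hexokinase that many tumours induce and that binds mitochondria, had the largest difference of the 10 genes at 8 h. Its control values were 0.00, 0.01 and -0.46, its 8 h values 0.63, 0.38 and 0.41, its 24 h values 0.05, 0.14 and 0.08, and its 48 h values -0.28, -0.03 and -0.20. All 8 h arrays were above all control arrays, but control replicate 3 lay far below the other controls, and the control SD of 0.27 was the highest of any group among the 10 genes. The 8 h difference was 0.62 (SE 0.11, 1.54-fold, adjusted p = 0.00132, limma), and it was 0.47 to 0.70 over the alternative analyses, which include leaving out each array. At 24 h HK2 was lower than at 8 h (-0.38, SE 0.11, adjusted p = 0.0311), a call lost without any of the 3 arrays at 24 h or without 8 h replicate 1 or 3 (adjusted p up to 0.128). It was not called against control at 24 h (0.24, adjusted p = 0.194) nor at 48 h (-0.02, adjusted p = 0.937).

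HK1, the hexokinase found in most tissues, changed less. It had 0.22, 0.00 and -0.06 in control, 0.38, 0.25 and 0.21 at 8 h, 0.16, 0.10 and 0.14 at 24 h, and 0.08, 0.07 and 0.20 at 48 h. The 8 h and control arrays overlapped, since control replicate 1 was slightly above 8 h replicate 3. The 8 h difference of 0.22 (SE 0.07, 1.17-fold) had an adjusted p = 0.0380 by limma, and the call was lost in 8 of 19 alternatives, among them leaving out control replicate 2 or 3, 8 h replicate 1 or 2, or 24 h replicate 1 or 3 (adjusted p from 0.0515 to 0.149). Neither the step between 8 and 24 h (-0.15, adjusted p = 0.212) nor that between 24 and 48 h (-0.01, adjusted p = 0.956) was called. HK1 was also the only called gene at 8 h that did not differ among the 4 groups by the F test described further on.

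Of the genes around the committed step, PFKP had the most lasting rise in the upper part of the pathway. PFKP encodes the platelet-type subunit of phosphofructokinase, which is widespread in cancer cells. It had 0.04, 0.00 and -0.13 in control, 0.50, 0.40 and 0.33 at 8 h, 0.34, 0.33 and 0.34 at 24 h, and 0.28, 0.26 and 0.25 at 48 h. All 9 treated arrays were above all control arrays, and the 24 and 48 h replicates lay within 0.03 of each other. PFKP was 1.36-fold higher at 8 h (0.44, SE 0.06, adjusted p = 8.26e-05, limma), 1.29-fold at 24 h (0.36, adjusted p = 0.000596) and 1.23-fold at 48 h (0.30, adjusted p = 0.00161, and 0.30 without 48 h replicate 3). The steps between 8 and 24 h (-0.08, adjusted p = 0.451) and between 24 and 48 h (-0.07, adjusted p = 0.583) were not called.

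PFKFB3 makes fructose 2,6-bisphosphate with high kinase activity and so speeds up phosphofructokinase. Its values were 0.00, -0.06 and 0.00 in control, 0.19, 0.26 and 0.25 at 8 h, 0.33, 0.23 and 0.27 at 24 h, and 0.09, 0.04 and 0.13 at 48 h. All treated arrays were above all control arrays, with the 48 h arrays nearest to control. It rose 1.19-fold at 8 h (0.25, SE 0.05, adjusted p = 0.00169, limma) and 1.23-fold at 24 h (0.30, SE 0.05, adjusted p = 0.000762). At 48 h it was lower than at 24 h (-0.19, SE 0.05, adjusted p = 0.0207), and no longer called against control (0.10, SE 0.05, adjusted p = 0.143). That fall was lost without 24 h replicate 1 or 3 or 48 h replicate 1 or 2 (adjusted p from 0.0533 to 0.0962), and held without 48 h replicate 3 (-0.22, adjusted p = 0.0162).

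PFKFB4 encodes another enzyme that both makes and breaks down fructose 2,6-bisphosphate. Its control values were all 0.00 to 2 decimals, and the others were 0.09, -0.09 and 0.05 at 8 h, 0.17, 0.07 and 0.14 at 24 h, and 0.08, 0.14 and 0.11 at 48 h. The 8 h arrays fell on both sides of control, and the 24 and 48 h arrays were all above it. No comparison with control was called (differences 0.02, 0.13 and 0.11, SE 0.05 each, adjusted p = 0.877, 0.126 and 0.166 at 8, 24 and 48 h). With array weights, PFKFB4 was called higher than control at 24 h (0.15, adjusted p = 0.0241, limma) and 48 h (0.13, adjusted p = 0.0152). It was also called higher at 24 h than at 8 h (0.16, adjusted p = 0.0168). The weights of the 48 h arrays were 0.797, 6.52 and 0.199, so weighted 48 h values rest mostly on replicate 2. Without weights, the 95% interval of the 24 h difference ran from 0.01 to 0.24, so a rise of that size is not excluded by the missing call.

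**Figure D2:**
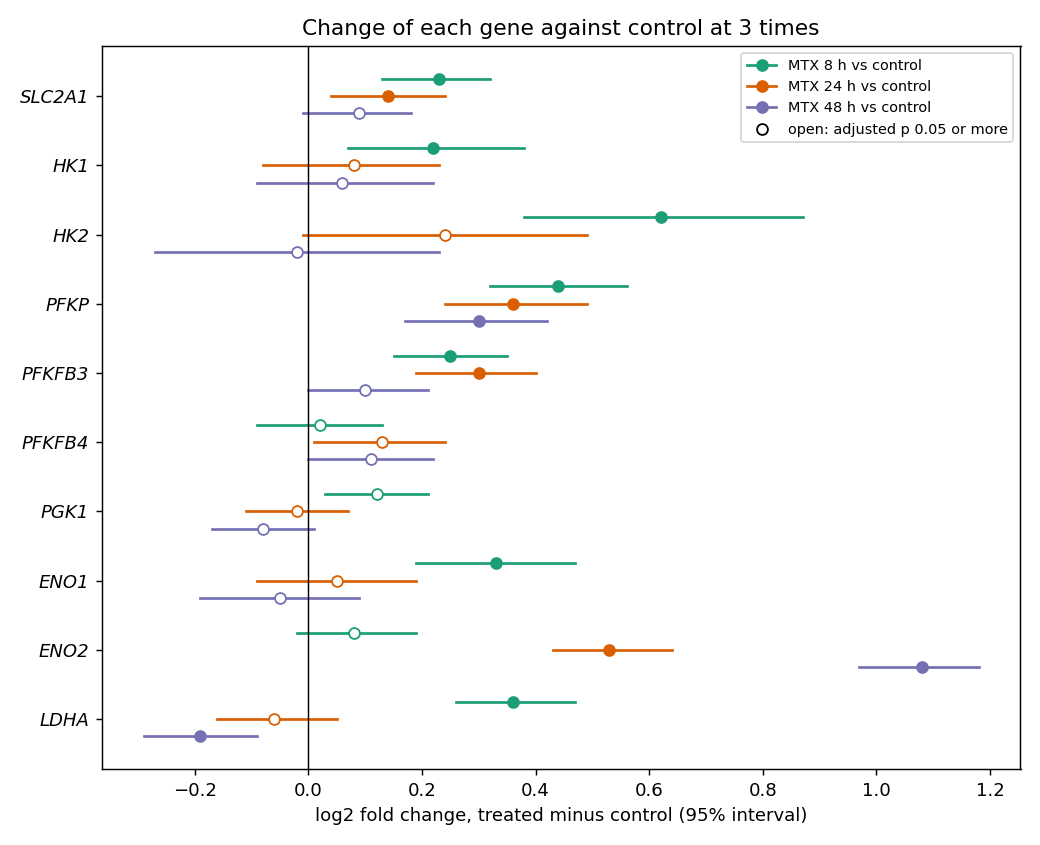
Log2 fold change of each gene against control (horizontal axis, treated minus control) at 8, 24 and 48 h with methotrexate, with limma's 95% interval; filled points have an adjusted p under 0.05 over all genes. Filled points at 8 h stand for 7 genes between 0.22 and 0.62, and ENO2 alone passes 1 at 48 h.

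The lower part of the pathway split in direction with time. The 250 bases before the annotated starts of its 4 genes are shown here. ENO2 and LDHA had the largest F statistics of the 10 genes, and PGK1 and ENO1, like LDHA, had their highest values at 8 h. SLC2A1, HK1, HK2 and PFKP, which are not shown, also had their highest mean at 8 h. The letters are those of RefSeq, assembly GRCh38.p14, written 5′ to 3′ on the gene's strand, and capitals mark matches on either strand to ACGTG or GCGTG, the core letters of the hypoxia response element that HIF1 binds. PGK1 lies at chrX:78103998-78104247, plus strand, ENO1 at chr1:8878687-8878936, minus strand, ENO2 at chr12:6914330-6914579, plus strand, and LDHA has 2 annotated starts, the first at chr11:18394313-18394562, plus strand, and the second at chr11:18396101-18396350, plus strand.
PGK1: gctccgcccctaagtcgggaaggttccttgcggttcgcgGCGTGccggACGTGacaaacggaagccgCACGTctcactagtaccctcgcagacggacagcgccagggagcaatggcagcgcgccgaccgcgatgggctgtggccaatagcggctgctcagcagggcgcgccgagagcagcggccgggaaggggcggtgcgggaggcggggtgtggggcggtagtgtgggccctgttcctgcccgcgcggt
ENO1: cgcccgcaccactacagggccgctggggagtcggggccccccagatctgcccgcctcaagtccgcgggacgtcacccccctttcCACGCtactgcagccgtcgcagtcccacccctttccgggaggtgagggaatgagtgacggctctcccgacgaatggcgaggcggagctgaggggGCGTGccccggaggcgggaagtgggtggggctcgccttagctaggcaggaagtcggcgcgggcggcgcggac
ENO2: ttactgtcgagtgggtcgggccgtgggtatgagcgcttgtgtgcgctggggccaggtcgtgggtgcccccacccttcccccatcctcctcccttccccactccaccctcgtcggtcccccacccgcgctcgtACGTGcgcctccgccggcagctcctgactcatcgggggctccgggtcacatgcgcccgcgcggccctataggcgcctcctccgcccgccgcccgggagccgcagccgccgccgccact
LDHA first start: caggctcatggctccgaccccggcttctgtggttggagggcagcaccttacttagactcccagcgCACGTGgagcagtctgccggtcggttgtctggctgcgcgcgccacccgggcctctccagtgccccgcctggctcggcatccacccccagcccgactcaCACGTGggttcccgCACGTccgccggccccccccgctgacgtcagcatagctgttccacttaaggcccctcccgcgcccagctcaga
LDHA second start: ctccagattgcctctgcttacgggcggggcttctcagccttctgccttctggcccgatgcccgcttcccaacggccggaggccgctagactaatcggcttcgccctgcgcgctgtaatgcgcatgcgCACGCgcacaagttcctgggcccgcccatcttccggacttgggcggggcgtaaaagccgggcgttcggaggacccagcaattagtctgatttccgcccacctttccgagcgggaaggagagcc

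ACGTG was found 5 times before the first LDHA start, 2 times before PGK1, 1 time before ENO2 and 0 times before ENO1, which held GCGTG 2 times. The E-box letters CACGTG, which MYC and other factors bind, contain ACGTG on both strands, and both E-boxes before the first LDHA start account for 4 of its 5 matches. Of the 22 annotated starts of the 10 genes, 13 had ACGTG or GCGTG in this window, against 43.2% of all 35116 starts in the table. For ACGTG alone it was 7 of 22 against 18.5% of all, and for CACGTG 3 of 22 (1 start each of HK2, PFKFB3 and LDHA) against 6.34% of all. SLC2A1, with 1 start, had neither ACGTG nor GCGTG, and HK1 had 1 match, before 1 of its starts. HK1 holds 7 of the 22 starts, so the starts do not weigh the genes equally. A match is a description of the letters only.

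ENO2 encodes the gamma subunit of enolase, the enzyme that makes phosphoenolpyruvate, and is best known as a marker of neurons and neuroendocrine cells. It had 0.00, 0.10 and -0.01 in control, 0.07, 0.15 and 0.10 at 8 h, 0.57, 0.58 and 0.53 at 24 h, and 1.06, 1.09 and 1.16 at 48 h. The 8 h arrays overlapped control, while the 24 h arrays were all above those and the 48 h arrays all above the 24 h arrays. The difference from control was 0.08 at 8 h (SE 0.05, adjusted p = 0.289, limma), 0.53 at 24 h (1.45-fold, adjusted p = 6.77e-06) and 1.08 at 48 h (2.11-fold, adjusted p = 8.03e-09). ENO2 ranked 32 of 18377 genes by p at 48 h and was the only one of the 10 that differed by 2-fold or more at any time. Each later step was a rise too, by 0.45 at 24 h over 8 h (adjusted p = 3.05e-05) and by 0.54 at 48 h over 24 h (adjusted p = 2.46e-05). Without 48 h replicate 3 the 48 h difference from control was 1.05 (adjusted p = 1.90e-08). In order of level, 48 h stood above 24 h and 24 h above 8 h, and the neighbours 8 h and control did not differ beyond their spread.

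ENO1 encodes the alpha subunit, the enolase of most tissues. Its values were 0.13, 0.00 and -0.02 in control, 0.35, 0.40 and 0.36 at 8 h, 0.10, 0.10 and 0.08 at 24 h, and -0.11, -0.06 and 0.14 at 48 h. The 8 h arrays stood above every other array, and at 48 h replicate 3 lay above the other replicates and just above the highest control. ENO1 was 1.26-fold higher at 8 h than in control (0.33, SE 0.06, adjusted p = 0.00205, limma) and lower at 24 h than at 8 h (-0.28, SE 0.06, adjusted p = 0.00792). Against control, it was not called at 24 h (0.05, adjusted p = 0.680) nor at 48 h (-0.05, adjusted p = 0.677). Without 48 h replicate 3, the 48 h arrays were lower than those at 24 h (-0.18, adjusted p = 0.0485), against -0.10 (adjusted p = 0.411) with it.

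LDHA encodes the muscle-type subunit of lactate dehydrogenase, which turns pyruvate into lactate and restores NAD. It had 0.00, 0.02 and -0.03 in control, 0.30, 0.38 and 0.40 at 8 h, -0.05, -0.03 and -0.10 at 24 h, and -0.13, -0.21 and -0.24 at 48 h. The 8 h arrays were all above control, the 48 h arrays were all below it, and the 24 h arrays lay just under the lowest control. LDHA rose 1.29-fold at 8 h (0.36, SE 0.05, adjusted p = 0.000102, limma) and was 1.14-fold lower than control at 48 h (-0.19, SE 0.05, adjusted p = 0.0101). The 48 h fall held without each array in turn (adjusted p from 0.00812 to 0.0419; -0.16, adjusted p = 0.0330, without 48 h replicate 3). Most of the drop fell between 8 and 24 h (-0.42, SE 0.05, adjusted p = 5.14e-05). The 24 h arrays were not called against control (-0.06, adjusted p = 0.522), nor the 48 h against the 24 h arrays (-0.13, adjusted p = 0.107, but 0.00772 with array weights).

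PGK1, the phosphoglycerate kinase of the first ATP-yielding step, moved in the same order with smaller differences. Its values were 0.02, -0.03 and 0.00 in control, 0.10, 0.13 and 0.12 at 8 h, -0.03, -0.01 and -0.02 at 24 h, and -0.04, -0.08 and -0.12 at 48 h. All 8 h arrays were above all controls and all 48 h arrays below them, yet neither difference was called (0.12, SE 0.04, adjusted p = 0.0566 at 8 h, and -0.08, SE 0.04, adjusted p = 0.216 at 48 h, limma). PGK1 was lower at 24 h than at 8 h (-0.14, SE 0.04, adjusted p = 0.0370), a call lost in 12 of 19 alternatives, among them leaving out any 8 or 24 h array, control replicate 2 or 48 h replicate 2 (adjusted p up to 0.114). The 8 h difference from control was called without 48 h replicate 3 (adjusted p = 0.0429) and with array weights (0.13, adjusted p = 0.00842). PGK1, ENO1 and LDHA have processed pseudogenes in the human genome, and probes that match such copies cannot be separated in these values.

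By limma's F test, 8 of the 10 genes differed among the 4 groups, beside 38.8% of all genes. ENO2 had the largest statistic (F = 210, adjusted p = 1.30e-08), followed by LDHA (49.2, adjusted p = 7.16e-06) and PFKP (23.5, adjusted p = 0.000170). PFKFB3, ENO1, HK2, SLC2A1 and PGK1 gave F from 7.81 to 16.5, and PGK1 lost its call without 8 h replicate 2 (adjusted p = 0.0508). HK1 (F = 3.44, adjusted p = 0.110, but 0.0144 without control replicate 1) and PFKFB4 (F = 3.00, adjusted p = 0.147, but 0.00572 with array weights) were not called. Between 8 and 24 h, 1 of the 10 genes was called higher (ENO2; 9.99% of all genes) and 4 were called lower (HK2, PGK1, ENO1 and LDHA; 9.40% of all genes). Between 24 and 48 h, 1 was higher (ENO2; 5.26% of all genes) and 1 lower (PFKFB3; 4.86% of all genes).

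Counted by arrays alone, the 3 treated values lay above all 3 control values in 7 of the 10 genes at 8 h (20.7% of all genes), 6 at 24 h (17.8%) and 5 at 48 h (17.9%). They lay below in 0 at 8 h (17.2% of all genes), in LDHA alone at 24 h (15.2%) and in PGK1 and LDHA at 48 h (17.9%).

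Of the 3 pairs of isozymes compared within an array, the enolases moved apart most. The difference ENO2 minus ENO1, in which any scaling of an array cancels, averaged -0.01 ± 0.12 in control arrays, -0.26 ± 0.01 after 8 h, 0.47 ± 0.02 at 24 h and 1.11 ± 0.08 at 48 h (SD, n = 3 arrays each). At 8 h it was below all controls, and at 24 and 48 h above all of them. HK2 minus HK1 averaged -0.20 ± 0.21 in control arrays, 0.19 ± 0.06 after 8 h, -0.04 ± 0.08 at 24 h and -0.29 ± 0.16 at 48 h. Only at 8 h were all of its arrays above control. PFKFB4 minus PFKFB3 averaged 0.02 ± 0.03 in control arrays, -0.21 ± 0.12 after 8 h, -0.15 ± 0.02 at 24 h and 0.02 ± 0.07 at 48 h, below all controls at 8 and 24 h.

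The test chosen for these pairs set all 9 treated arrays against the 3 controls and found no difference past the threshold. The means were 0.44 and -0.01 for the enolases, -0.05 and -0.20 for the hexokinases, and -0.11 and 0.02 for the PFKFB enzymes, in treated and control arrays in that order (two-sided exact permutation test over 220 groupings, adjusted p = 0.318 for each of the 3 pairs). That test pools times that lay on opposite sides of control for the enolases. An exact permutation of the F statistic over the 4 groups, added after the data were seen, gave adjusted p = 0.000195 for the enolases (F = 209), 0.00769 for the PFKFB enzymes (F = 8.11) and 0.0196 for the hexokinases (F = 6.70). For the enolases the unadjusted p = 6.49e-05 was the smallest that the 15400 partitions can give.

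**Figure D3:**
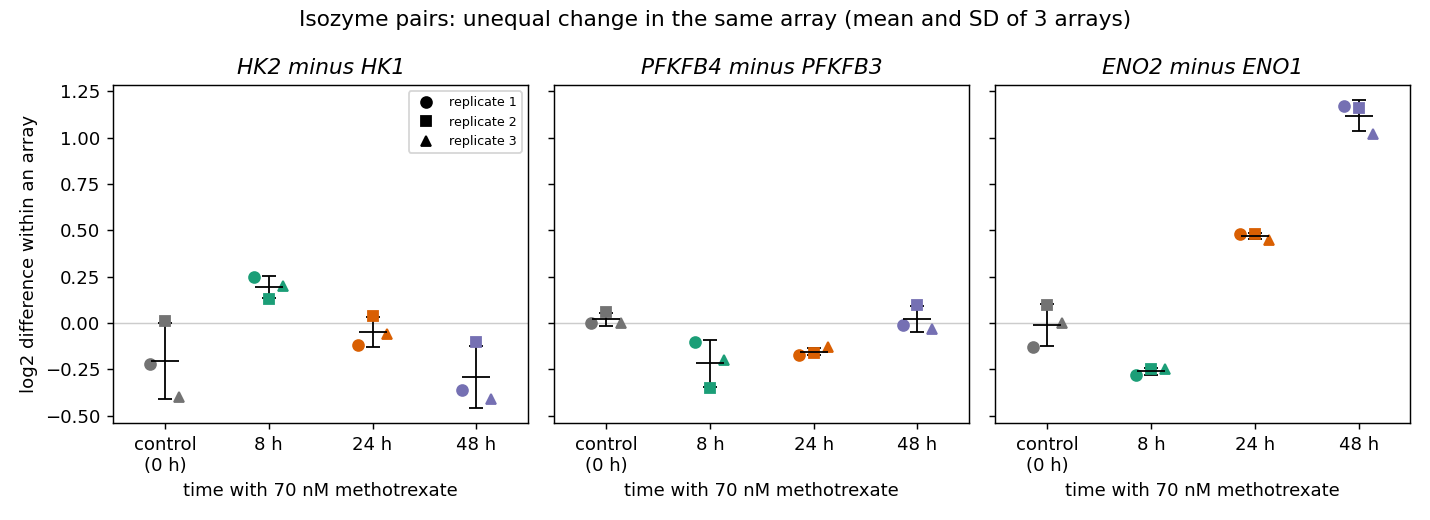
Log2 difference between 2 isozyme genes on the same array (vertical axis) by time with 70 nM methotrexate (horizontal axis), for HK2 minus HK1, PFKFB4 minus PFKFB3 and ENO2 minus ENO1; symbols are replicates and bars give the mean and SD of 3 arrays. The enolase difference lies at -0.28 to -0.25 at 8 h and at 1.02 to 1.17 at 48 h.

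The other genes of glycolysis and glucose uptake were counted against the same controls. Of 26 measured (29 listed), 5 rose and 6 fell at 8 h, 1 rose and 3 fell at 24 h, and 5 rose and 4 fell at 48 h, with median differences of 0.09, 0.03 and 0.03. Over all genes, 12.1% rose and 12.0% fell at 8 h, 8.69% and 8.02% at 24 h, and 13.0% and 12.3% at 48 h. The 5 that rose at 8 h were PFKM (0.45), PKM (0.25), ALDOA (0.24), GPI (0.22) and SLC2A8 (0.21). Among these, only SLC2A8 was called higher than control at 24 and 48 h as well, and PFKM was called lower at 48 h (-0.22). ALDOC, the aldolase C isozyme, fell by 0.51 at 8 h (SE 0.05, adjusted p = 7.25e-06, limma) and by 0.24 at 24 h (adjusted p = 0.00398), and rose by 0.45 at 48 h (adjusted p = 1.80e-05). SLC2A12, a glucose transporter of the GLUT family, fell by 0.75 at 8 h (SE 0.14, adjusted p = 0.00134) and was 2.02-fold higher than control at 48 h (1.01, adjusted p = 0.000117). Both had thus, like ENO2, their highest value at 48 h. SLC5A1, the sodium-coupled glucose transporter of the intestine, was lower at all 3 times, by 0.49, 0.70 and 0.26. HKDC1, a hexokinase relative, fell by 0.50 at 8 h and by 0.52 at 48 h (adjusted p = 0.000343 and 0.000247).

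Larger differences than in any of the 10 genes were found in regulators of glucose uptake. TXNIP, an arrestin-like protein known to restrain GLUT1 at the cell surface, had -1.53, -1.69 and -1.80 at 8 h, -1.93, -1.85 and -1.82 at 24 h and -1.41, -1.43 and -1.36 at 48 h, against 0.00, 0.01 and -0.04 in control. It was 3.17-fold, 3.63-fold and 2.62-fold lower than control at the 3 times (adjusted p = 3.49e-09, 4.71e-09 and 8.03e-09, limma). ARRDC4, its relative, was 1.82-fold, 2.41-fold and 2.27-fold lower. Of the 17 measured regulators of glucose and oxygen sensing, 3 rose and 8 fell at 8 h, 3 rose and 5 fell at 24 h, and 5 rose and 5 fell at 48 h. All genes gave 12.1% higher and 12.0% lower at 8 h, 8.69% and 8.02% at 24 h, and 13.0% and 12.3% at 48 h. EGLN3, a prolyl hydroxylase that marks HIF proteins for breakdown, rose by 0.40, 0.25 and 0.25. MYC was not called at 8 h (0.07, adjusted p = 0.487) and fell by 0.42 at 24 h and by 0.63 at 48 h.

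Known HIF targets outside glycolysis were counted too. Of 17 measured, 1 rose and 6 fell at 8 h, 3 rose and 3 fell at 24 h, and 5 rose and 3 fell at 48 h (medians -0.09, 0.00 and 0.04). Over all genes, 12.1% were called higher and 12.0% lower at 8 h, 8.69% and 8.02% at 24 h, and 13.0% and 12.3% at 48 h. VEGFA, the vascular growth factor, was 2.29-fold lower at 8 h (-1.20, SE 0.05, adjusted p = 1.41e-08, limma) and 1.64-fold lower at 48 h. DDIT4, an inhibitor of mTORC1, was 4.80-fold lower at 8 h and 4.63-fold lower at 48 h. VEGFA and DDIT4 were called lower at 24 h too, with differences of -0.59 to -0.54 and -1.79 to -1.68 over the alternative analyses. BNIP3L, a mitophagy receptor, fell by 0.50 at 8 h alone. P4HA2, a collagen prolyl hydroxylase, rose by 0.70 at 24 h and by 0.92 at 48 h. Whether the lists differ from each other was not tested.

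**Figure D4:**
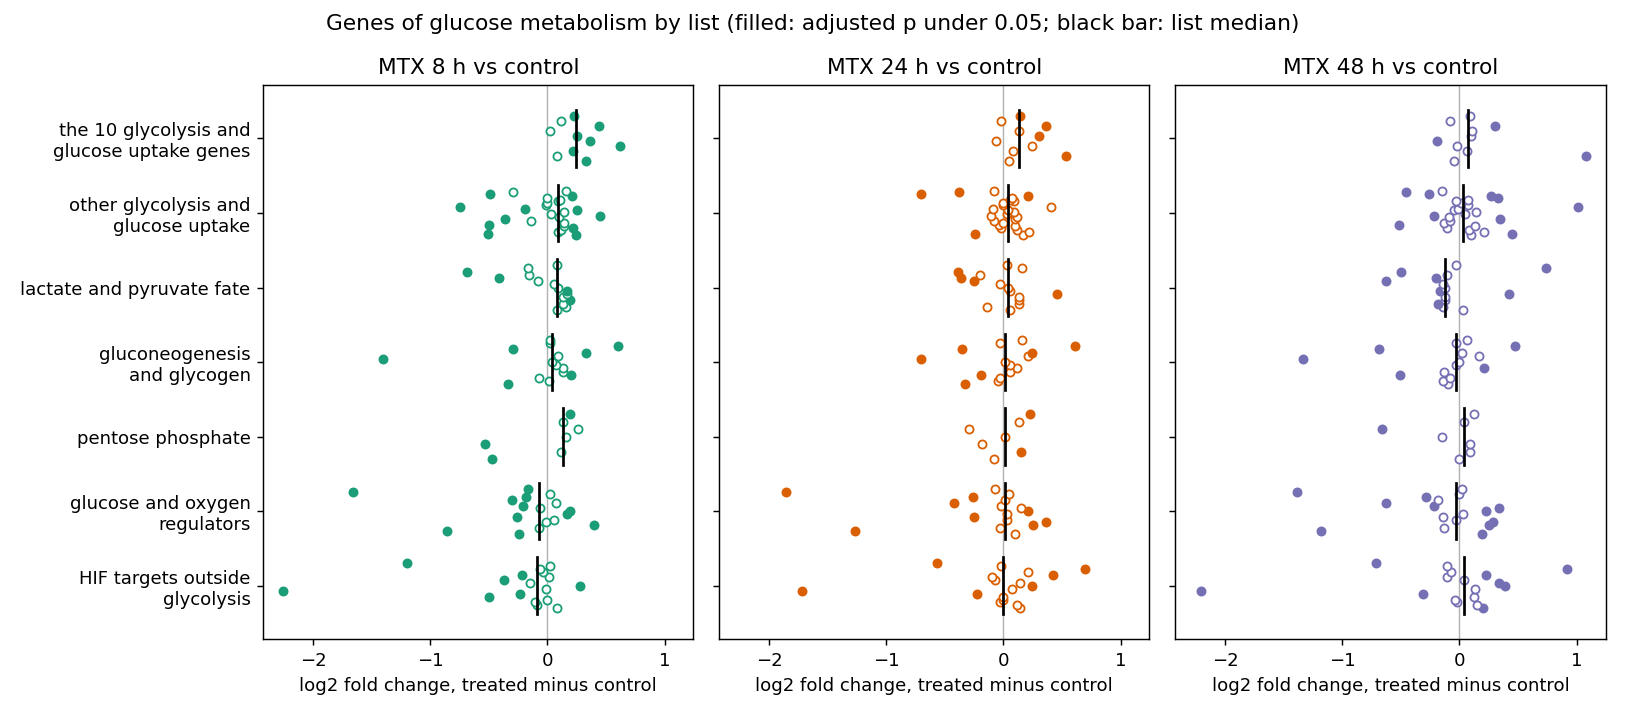
Log2 fold change of single genes against control (horizontal axis, treated minus control) at 8, 24 and 48 h, by gene list (vertical axis); filled points have an adjusted p under 0.05 and the black bar is the list median. The bar of the 10 glycolysis and glucose uptake genes stands at 0.24, 0.13 and 0.08, and that of the HIF targets outside glycolysis at -0.09, 0.00 and 0.04.

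The genes whose course over the 12 arrays was most like that of ENO2 were SLC7A7, an amino acid transporter subunit (Pearson r = 0.995), CAMK1D, a calmodulin-dependent kinase (0.991), ARRB1, beta-arrestin 1 (0.989), GPRC5B (0.987) and CCNL2 (0.986). Those most like LDHA were HSPE1, the mitochondrial co-chaperone (0.986), PNO1, a ribosome assembly factor (0.979), BCCIP (0.979), POLR3G, an RNA polymerase III subunit (0.977), and EIF2S1, a subunit of the initiation factor eIF2 (0.976). The arrays fall into 4 groups and share 1 normalization, so these values mostly compare the group means.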

How the data were processed

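Biotin-labelled RNA of HT29 cells was measured on Affymetrix HuGene 1.0 ST arrays, 3 per group and 12 in all. The authors deposited log2 values, 1 for each array and probe set. RMA and hg19 appear in the submitters' processing notes, with no version of RMA. For each of the 28869 probe sets the controls have a median of exactly 0 in the deposited table. No source used here states that centring, and the log base was taken from RMA. Depth has no meaning for arrays; their number limits the precision.

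The platform annotation gave 1 gene symbol to 19310 probe sets, several to 1752 and none to 7807. Means of single-gene probe sets gave 18377 genes, 685 of them with over 1 probe set. Groups were taken from the sample titles. limma 3.58.1 in R 4.3.3 fitted a mean per group to all 12 arrays (8 residual and 4.71 prior degrees of freedom), and p-values were adjusted by Benjamini-Hochberg over all genes of a comparison, two-sided, with 0.05 as the threshold. The 5 comparisons were each time against control, 24 h against 8 h and 48 h against 24 h. SE is limma's moderated standard error. The fit was tested on simulated data. Isozyme pairs were compared by exact permutation.

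Named were all 10 genes, up to 4 called genes of each list with the largest change against control, and the 5 genes most correlated with each of the 2 genes of largest F. The other glycolysis and glucose uptake genes called higher at 8 h were named besides. The genes and lists were chosen with earlier results of these data known. Alternatives were the replicate block, array centring, array weights, a robust prior, single probe sets, a threshold of 0.01, fits of only the 2 groups compared and leaving out each array. Background correction and a filter on dim probes could not be varied, since signals are not in the values used here. The p-values measure the spread between arrays that the titles call biological replicates. Figures were drawn with Python 3.11.15 and matplotlib 3.10.9.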

Additional observations from a re-analysis of the deposited data

Results flagged for a closer look

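Consecutive times with methotrexate differed in 5 of the 10 genes between 24 and 8 h and in 2 between 48 and 24 h, by limma's test. Over all genes, 9.99% were called higher and 9.40% lower at 24 h than at 8 h. For 48 h against 24 h the shares were 5.26% and 4.86%. Without untreated arrays at these times, methotrexate and time in culture cannot be told apart. ENO2 was higher by 0.45 at 24 h than at 8 h and by 0.54 at 48 h than at 24 h. Lower at 24 h than at 8 h were LDHA (-0.42), HK2 (-0.38), ENO1 (-0.28) and PGK1 (-0.14). PFKFB3 was lower at 48 h than at 24 h (-0.19). The calls of HK2, PGK1 and PFKFB3 were lost in some analyses that left out 1 array (adjusted p up to 0.128, 0.114 and 0.0962), and those of ENO2, LDHA and ENO1 were not lost in any. Groups of 3 arrays are too small to look for single outlying arrays by gene.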

How the results depend on the processing

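For the 10 genes, 883 of 950 values under an alternative kept their direction and their side of the threshold, 48 lost a call, 8 gained one and 11 changed sign. All sign changes were of differences near 0 that were never called. PFKFB4 at 8 h against control was 0.02, and 0.00 with each array centred, -0.01 with array weights and -0.02 to 0.07 with 1 array left out. HK2 at 48 h against control was -0.02, and 0.00 with array weights and -0.18 to 0.06 with 1 array left out. At 48 h against 24 h, leaving out 1 array gave -0.06 to 0.01 for HK1 and -0.05 to 0.00 for PFKFB4. With array weights, 6079 genes were called at 24 h against control (3070 without weights), 7455 at 48 h (4649), 5901 at 48 h against 24 h (1860) and 11190 by the F test (7122), with 2 of the 10 genes higher at 24 h than at 8 h and 3 lower at 48 h than at 24 h. At an adjusted p under 0.01, the counts were 2920 at 8 h, 1770 at 24 h, 2252 at 24 h against 8 h and 819 at 48 h against 24 h, and 0, 2 and 0 of the 10 genes were lower at 48 h against control, 24 h against 8 h and 48 h against 24 h; the construction of that threshold accounts for this. In a fit of only these 2 groups, 1022 genes and 0 of the 10 lower were called at 48 h against 24 h. Leaving out 1 array gave 1103 to 2149 genes and 0 to 2 of the 10 lower at 48 h against 24 h, and 2 to 4 of the 10 lower at 24 h against 8 h. The permutation of F over the 4 groups, the only analysis added later, brought all 3 isozyme pairs past the threshold (F = 6.70, 8.11 and 209). With the replicate number as a block, 4718 genes were called at 8 h against control (4439 without it) and 7 of the 10 genes were higher, as without it. SLC2A1 at 24 h (adjusted p = 0.0684) and PGK1 at 24 h against 8 h (0.0586) lost their calls under the block. Whether the replicate numbers pair the arrays cannot be settled with so few arrays in each group. Same-numbered deviations from the group means correlated from -0.45 to 0.47. In 14 of 36 cases an array's closest match among the 3 arrays of another group had its own number. The array weights ran from 0.199 (48 h replicate 3) to 6.52 (48 h replicate 2). The cause of the changes under other settings was not tested. The arrays' signal over background is unknown.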

Other observations

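The counts of called genes here stand beside 12.1%, 8.69% and 13.0% of all genes called higher and 12.0%, 8.02% and 12.3% called lower at 8, 24 and 48 h, and no list was tested against them. Of 15 measured genes of lactate and pyruvate fate, 2 rose and 2 fell at 8 h, 1 rose and 3 fell at 24 h, and 2 rose and 5 fell at 48 h. PDK4 and PDK1, kinases that switch off pyruvate dehydrogenase, were lower at 48 h by 0.50 and 0.63 (adjusted p = 5.09e-05 and 1.14e-05, limma). PDK4 was lower at 8 h (-0.69, adjusted p = 4.08e-06) and 24 h (-0.39, adjusted p = 0.000568) too. PDK1 was lower at 24 h as well (-0.25, adjusted p = 0.0170), a call lost in 5 of 19 alternatives. PDP1, the phosphatase that switches the complex on, was 1.67-fold higher at 48 h (0.74, SE 0.10, adjusted p = 9.24e-05). PC, pyruvate carboxylase, rose by 0.46 at 24 h and by 0.42 at 48 h (adjusted p = 0.00239 and 0.00246).

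Of 15 genes of gluconeogenesis and glycogen, 3 rose and 3 fell at 8 h, 2 rose and 4 fell at 24 h, and 2 rose and 3 fell at 48 h. PCK2, the mitochondrial enzyme that makes phosphoenolpyruvate from oxaloacetate, was 2.64-fold, 1.62-fold and 2.53-fold lower than control at 8, 24 and 48 h (adjusted p = 8.19e-09, 4.75e-06 and 8.91e-09, limma). Of the glycogen phosphorylases, PYGL rose by 0.60, 0.61 and 0.47 at the 3 times, and PYGB fell by 0.29, 0.35 and 0.69. G6PC3, a glucose-6-phosphatase, was higher than control at 8 h (0.20, adjusted p = 0.0272) and lower at 24 h (-0.19, adjusted p = 0.0414) and 48 h (-0.51, adjusted p = 3.11e-05). Its 8 h call was lost without any control or 8 h array (adjusted p up to 0.0970), and its 24 h call without any control or 8 h array or without 24 h replicate 2 or 3 (up to 0.131). Of 7 pentose phosphate genes, 1 rose and 2 fell at 8 h, 2 rose and 0 fell at 24 h, and 0 rose and 1 fell at 48 h. PGLS and H6PD fell by 0.53 and 0.47 at 8 h, TKT rose by 0.23 at 24 h (adjusted p = 0.0227), and RPIA fell by 0.66 at 48 h (adjusted p = 0.000193). The TKT call was lost without control replicate 2 or 3 or 24 h replicate 1 or 3 (adjusted p up to 0.108).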
